A study of Capra hircus with 20 samples.

Results

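The genes described here are the HOX genes of the goat, the homeobox transcription factors that lie in the HOXA, HOXB, HOXC and HOXD clusters. Members were taken from the mRNA expression table by their symbol, HOX followed by a cluster letter from A to D and a number, and 37 of the 20587 genes in that table met the rule, with 49 of its 43766 transcripts. They divide into 11 HOXA, 9 HOXB, 9 HOXC and 8 HOXD genes, and by number into 8 anterior genes (numbers 1 to 3), 13 central genes (numbers 4 to 8) and 16 posterior genes (numbers 9 to 13). HOXB4 and HOXD4 were not analysed here.

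RNA was sequenced from cultured cells of 7-day-old male Jianzhou Daer goats, in 4 groups of 5 libraries. Intramuscular preadipocytes (IMPA) came from the longissimus dorsi, the long muscle of the back, and subcutaneous preadipocytes (SPA) from fat under the skin, both at the start of induction, and intramuscular adipocytes (IMA) and subcutaneous adipocytes (SA) are the same kinds of cells after 3 days with oleic acid, a fatty acid that makes them store lipid. All groups were isolated with collagenase, grown in serum and used at passage 3, so they are cultures of mixed tissue cells and not sorted cells, and no source used here gives the position along the body at which the subcutaneous fat was cut. The authors set 5 replicates per group from 5 goats without saying which goat a replicate number stands for, so p values measure the spread between these libraries.

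HOX proteins bind DNA and give cells their position along the body axis. Within a cluster the genes stand in the order of their numbers, and in the embryo the low numbers come on early and towards the head, while the high numbers come on later and towards the tail. Fibroblasts and fat precursors keep a part of this pattern in the adult and in culture, which is why these genes are read as a record of the site a cell came from.

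Values are in FPKM, the fragments of a transcript scaled to its length and to the size of the library, and the transcripts of a gene were summed. FPKM is a level per length, so the levels of different genes can be set side by side. Per library the mRNA table added up to 373889 to 413880 FPKM, and the reads behind a low value are unknown because the table holds no counts. None of the 40 pairs of libraries within a group held identical values, and their correlation over genes lay between 0.986 and 0.996.

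Markers of other cell types also differed between the depots. The summed level of the 16 skeletal muscle markers in the table was 3552 to 4067 FPKM in IMPA and 12898 to 13660 FPKM in IMA, but 7.5 to 25.3 FPKM in SPA and 7.79 to 10.2 FPKM in SA, with MYOD1, the master regulator of myoblasts, at 0 in all SPA libraries and CKM, the muscle creatine kinase, at 0 in all SA libraries. All 16 had a group mean of at least 1 FPKM in IMPA and IMA. The 11 stromal markers summed to 6120 to 8619 FPKM in IMPA, 7678 to 8515 FPKM in IMA, 12687 to 13433 FPKM in SPA and 12138 to 12948 FPKM in SA. DCN alone made most of this gap, with means of 660, 535, 5441 and 4120 FPKM in that order. COL3A1 (4444 FPKM in IMPA and 4303 in SPA) and DPP4 (10.1 and 2.37) were higher in IMPA, and the means of the other stromal markers were higher in SPA. The 9 adipocyte markers in the table, FABP4 not among them, summed to between 10.7 and 13.5 FPKM over all libraries, low beside the stromal markers. A group mean of at least 1 FPKM was reached by 2 of them in IMPA, IMA and SPA and by 4 in SA. They did not move together with induction. CD36 rose from 0.252 FPKM in IMPA to 4.91 in IMA and from 0.0679 in SPA to 0.934 in SA. CEBPA fell from 9.23 to 5.42 and from 5.05 to 3.91 FPKM, and LEP, the gene of leptin, was at 0 in SA. The leukocyte markers summed to a mean of 6.57, 10.96, 16.8 and 14.3 FPKM in IMPA, IMA, SPA and SA, the 4 Schwann markers to 30.9, 34.4, 43.3 and 27.2 FPKM with S100B as the one marker of at least 1 FPKM, the 6 endothelial markers to 1.13, 1.05, 1.06 and 0.865 FPKM, and the 3 keratinocyte markers to 2.06, 1.00, 0.105 and 0.176 FPKM. Every depot difference below therefore stands between cultures that also differ in muscle transcripts, whose part in the result was not tested, and in such bulk RNA fewer cells of a type and less RNA per cell cannot be told apart.

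Averaged over the 20 libraries, 11 of the 37 members reached 1 FPKM, 14 lay between 0.1 and 1 FPKM, and 12 were under 0.1 FPKM, of which HOXB1 and HOXD12 were at 0 in every library. Of all members, 23 were above 0 in all 20 libraries. These 11 members were HOXA5, HOXA7, HOXA9, HOXA10, HOXB7, HOXC4, HOXC6, HOXC8, HOXC9, HOXD8 and HOXD9, so no anterior gene was among them. Just inside this limit were HOXA7 (1.09 FPKM) and HOXA10 (1.14 FPKM), and just outside it HOXC5 (0.967 FPKM) and HOXB6 (0.887 FPKM).

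**Figure D1:**
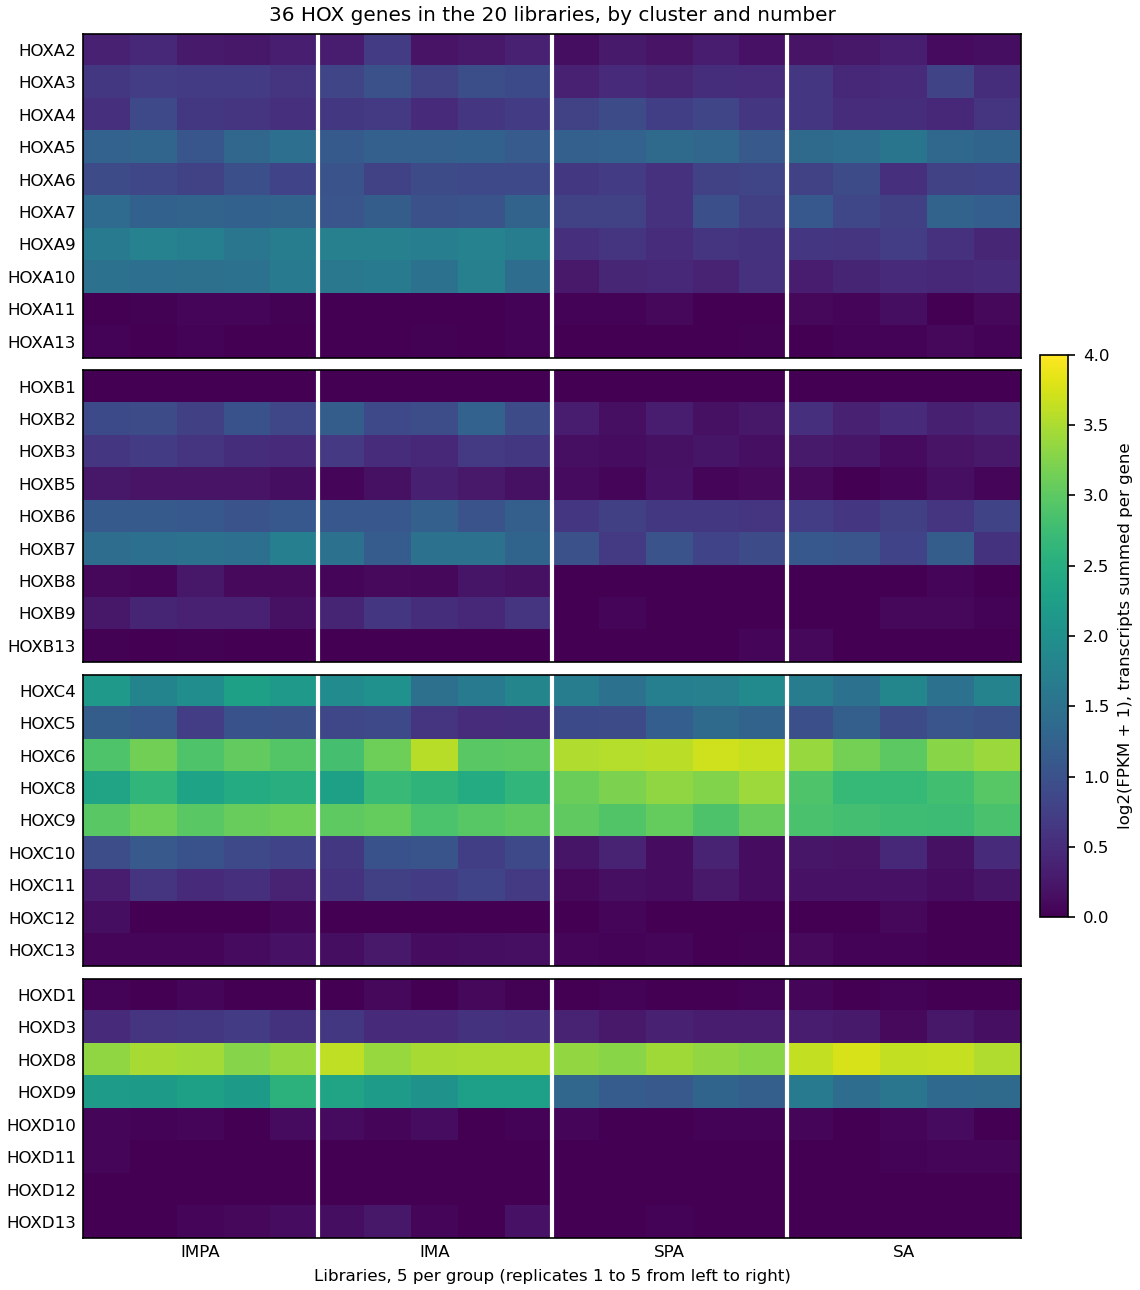
Level of 36 HOX genes (rows, by cluster and number) in the 20 libraries (columns, 5 per group), as log2(FPKM + 1) of the summed transcripts on a colour scale from 0 to 4. The brightest rows in all groups are HOXC6, HOXC8, HOXC9 and HOXD8, while the rows of HOXA9, HOXA10, HOXB9, HOXC10 and HOXD9 are brighter in the 10 intramuscular libraries than in the 10 subcutaneous libraries.

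The central and first posterior genes of the HOXC and HOXD clusters carried most of the HOX transcripts in every group. In IMPA the order of the means ran from HOXD8 (9.42 ± 0.62 FPKM, SD, n = 5) over HOXC9 (7.30 ± 0.41), HOXC6 (6.93 ± 0.60), HOXC8 (4.49 ± 0.50), HOXD9 (3.87 ± 0.60) and HOXC4 (3.24 ± 0.54) to HOXA9 (2.20 ± 0.18), HOXA10 (1.87 ± 0.16), HOXB7 (1.87 ± 0.25) and HOXA5 (1.44 ± 0.24). In that order the libraries of HOXC9 and HOXC6 overlapped, as did those of HOXC8 and HOXD9, of HOXD9 and HOXC4, and of each neighbouring pair from HOXA9 down to HOXA5. In IMA the first 5 were HOXD8, HOXC6, HOXC9, HOXC8 and HOXD9, with overlap between HOXD8 and HOXC6, between HOXC6 and HOXC9, and between HOXC8 and HOXD9.

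The subcutaneous order also began with HOXC and HOXD genes. In SPA it ran HOXC6 (11.2 ± 0.63 FPKM), HOXD8 (9.16 ± 0.40), HOXC8 (8.59 ± 0.79), HOXC9 (6.96 ± 0.45) and HOXC4 (2.28 ± 0.34), with overlap only between HOXD8 and HOXC8 among these neighbours. In SA it ran HOXD8 (11.5 ± 0.72 FPKM), HOXC6 (8.54 ± 1.09), HOXC8 (6.0 ± 0.60), HOXC9 (5.97 ± 0.25) and HOXC4 (2.19 ± 0.35), with overlap only between HOXC8 and HOXC9 among the first 5. HOXA9 and HOXA10, among the 10 highest of both intramuscular groups, were not among the 10 highest of SPA or SA. The posterior gene HOXD9 was among them, at rank 7 in SPA and 6 in SA, against rank 5 in IMPA and IMA.

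A gene was counted as expressed in a group when all 5 libraries held at least 1 FPKM. By this count 7 HOX genes were expressed in SPA and the same 7 in SA, namely HOXA5, HOXC4, HOXC6, HOXC8, HOXC9, HOXD8 and HOXD9. All 7 were also expressed in IMPA and IMA, which added HOXA9, HOXA10, HOXB6 and HOXB7, and IMPA also HOXA7, for 12 genes in IMPA and 11 in IMA. The highest number expressed was thus 10 in the intramuscular cells and 9 in the subcutaneous cells. No HOXB gene was expressed in SPA or SA by this count, and no anterior gene in any group. The limit of 1 FPKM sets how many genes are counted. At 0.5 FPKM the counts were 17, 17, 11 and 10 in IMPA, IMA, SPA and SA, with the highest number 10 in the first pair and 9 in the second. HOXB6 and HOXB7 were then counted in SPA and HOXB6 in SA, and 2 anterior genes in IMPA and 3 in IMA. With values scaled to a sum of 1000000 per library anterior genes were counted in all 4 groups, and the highest number in IMA was 11, for HOXC11.

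Summed over the clusters, the 37 genes reached 52.9 ± 2.1 FPKM in IMPA, 53.9 ± 1.2 in IMA, 48.7 ± 1.9 in SPA and 46.1 ± 1.8 in SA (SD, n = 5). The HOXB sum was 4.77 to 4.99 FPKM in the IMPA libraries, 4.40 to 5.62 in IMA, 1.60 to 2.13 in SPA and 1.89 to 2.62 in SA. The HOXA sum was 9.15 to 10.1, 9.20 to 11.2, 4.93 to 5.92 and 5.85 to 6.67 FPKM in the same order. For both clusters every intramuscular library lay above every subcutaneous library. The HOXC sum was highest in SPA, at 28.5 to 32.9 FPKM against 22.3 to 26.0 in IMPA, while IMA (21.7 to 26.3) and SA (22.2 to 26.6) overlapped. HOXC genes thus held 62.8% ± 1.5 of the HOX sum in SPA and 46.1% ± 1.7 in IMPA, and 52.4% ± 2.8 in SA and 44.6% ± 3.2 in IMA. The HOXD sum was 12.8 to 14.9 FPKM in IMPA, 13.8 to 16.1 in IMA, 10.3 to 11.3 in SPA and 12.3 to 14.4 in SA. These sums are descriptions without a test.

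By number, the posterior genes held 32.2% ± 1.1 of the HOX sum in IMPA and 31.7% ± 1.4 in IMA, against 19.6% ± 0.86 in SPA and 20.1% ± 1.2 in SA. HOXC9 alone is a large part of this, and it was near 7 FPKM in both depots at day 0. Without HOXC9 the other 15 posterior genes summed to 9.06 to 10.9 FPKM in IMPA and 9.68 to 10.8 in IMA, but to 2.30 to 2.85 in SPA and 2.93 to 3.89 in SA. The 12 genes numbered 10 to 13 summed to 3.31 to 3.60 FPKM in IMPA and 3.39 to 4.28 in IMA, and to 0.552 to 0.880 in SPA and 0.726 to 1.22 in SA. For numbers 11 to 13 the mean sums were only 0.583, 0.879, 0.198 and 0.301 FPKM in IMPA, IMA, SPA and SA. The central genes held the larger share of the subcutaneous sum, 76.8% ± 0.89 in SPA and 75.5% ± 1.1 in SA, against 61.7% ± 0.80 in IMPA and 60.8% ± 2.4 in IMA, and the anterior genes the smallest share everywhere, 6.11% in IMPA, 7.5% in IMA, 3.51% in SPA and 4.46% in SA.

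The comparison of IMPA with SPA asks how the depots differ before induction. Among the posterior genes, HOXA9, HOXA10 and HOXD9 were higher in IMPA, and among the central genes HOXA7, HOXB7 and HOXC4 were higher and HOXC6 and HOXC8 lower. HOXA5, HOXC9 and HOXD8 did not pass the test. Thus 8 of the 11 members tested (72.7%) had an adjusted p under 0.05, 6 higher and 2 lower in IMPA, in limma's moderated test on log2(FPKM + 1). Of all 11432 genes tested 75.1% did, 42.3% higher and 32.9% lower in IMPA, so the share of HOX genes called was near the background. The libraries of 7 of the 11 did not overlap between the groups, against 63.4% of all genes tested. HOXA7, HOXA9, HOXA10 and HOXB7 reached the mean of 1 FPKM through the intramuscular libraries, since their subcutaneous mean was below it, and the counts of members that passed are for that reason no support for a direction.

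HOXA9, a posterior gene of the HOXA cluster, stood at 2.10, 2.43, 2.30, 1.95 and 2.21 FPKM in IMPA replicates 1 to 5 and at 0.468, 0.540, 0.417, 0.536 and 0.494 FPKM in SPA. The lowest IMPA library was above the highest SPA library by more than the spread within either group, and the log2 fold change was 1.10 ± 0.054 (SE), with an adjusted p of 1.18e-09. HOXA10, its next neighbour in the cluster and known for its part in patterning the uterus, stood at 1.85, 1.74, 1.78, 1.82 and 2.15 FPKM in IMPA and at 0.206, 0.349, 0.366, 0.315 and 0.484 FPKM in SPA. Here too the groups did not overlap, and the log2 fold change was 1.10 ± 0.064 with an adjusted p of 7.06e-09. Since these fold changes are of FPKM + 1, they understate the ratios of the group means, which were 4.48 for HOXA9 and 5.43 for HOXA10.

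HOXD9, the paralogue of HOXA9 in the HOXD cluster, stood at 3.56, 3.52, 3.84, 3.51 and 4.92 FPKM in IMPA and at 1.5, 1.25, 1.17, 1.43 and 1.33 FPKM in SPA. The IMPA libraries were all above the SPA libraries, replicate 5 farthest (log2 fold change 1.05 ± 0.078, adjusted p 7.06e-08, ratio of means 2.90). HOXC9, the paralogue in the HOXC cluster, gave no such difference, at 6.86 to 7.70 FPKM in IMPA and 6.39 to 7.37 FPKM in SPA (log2 fold change 0.06, 95% interval -0.05 to 0.17, adjusted p 0.294). These per-library values of HOXA9, HOXA10, HOXD9 and, below, HOXC8 are given because the depot results turn on them, a choice made after their values were seen.

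HOXC6 and HOXC8, central genes that mark the thoracic part of the axis in the embryo, moved the other way. HOXC6 was measured at 6.5, 7.83, 6.42, 7.23 and 6.66 FPKM in IMPA and at 10.4, 10.8, 11.02, 12.03 and 11.6 FPKM in SPA. HOXC8 was measured at 4.05, 5.20, 3.98, 4.496 and 4.74 FPKM in IMPA and at 7.54, 8.30, 9.04, 8.45 and 9.62 FPKM in SPA. For both genes every SPA library was above every IMPA library. HOXC6 fell by 0.62 on the log2 scale from SPA to IMPA (SE 0.057, adjusted p 5.55e-07) and HOXC8 by 0.80 (SE 0.072, adjusted p 4.88e-07). HOXD8, the most abundant HOX gene in IMPA, gave 9.08, 10.2, 9.88, 8.63 and 9.34 FPKM in IMPA and 9.21, 8.82, 9.78, 9.21 and 8.80 FPKM in SPA. Its groups overlapped, with a log2 fold change of 0.03 (95% interval -0.07 to 0.14, adjusted p 0.524).

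The other members called were HOXB7, HOXA7 and HOXC4, all higher in IMPA. HOXB7 had a mean of 1.87 ± 0.25 FPKM in IMPA and 0.852 ± 0.18 in SPA (log2 fold change 0.63, adjusted p 1.10e-05), and HOXA7 1.44 ± 0.11 and 0.720 ± 0.17 FPKM (0.51, adjusted p 3.08e-05). HOXC4 had 3.24 ± 0.54 and 2.28 ± 0.34 FPKM, with overlapping libraries (0.37, adjusted p 0.00374). Its call was lost with quantile normalization, under which the split of the 8 calls was 5 higher and 3 lower. The call was also lost with its most abundant transcript in place of the sum. The HOXC4 sum includes a transcript that RefSeq labels non-coding, with a mean of 1.38 FPKM in IMPA and 0.578 in SPA. HOXA5, a gene found in fat depots of several species, gave 1.09 to 1.75 FPKM in IMPA and 1.16 to 1.60 FPKM in SPA (log2 fold change 0.02, 95% interval -0.14 to 0.19).

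**Figure D2:**
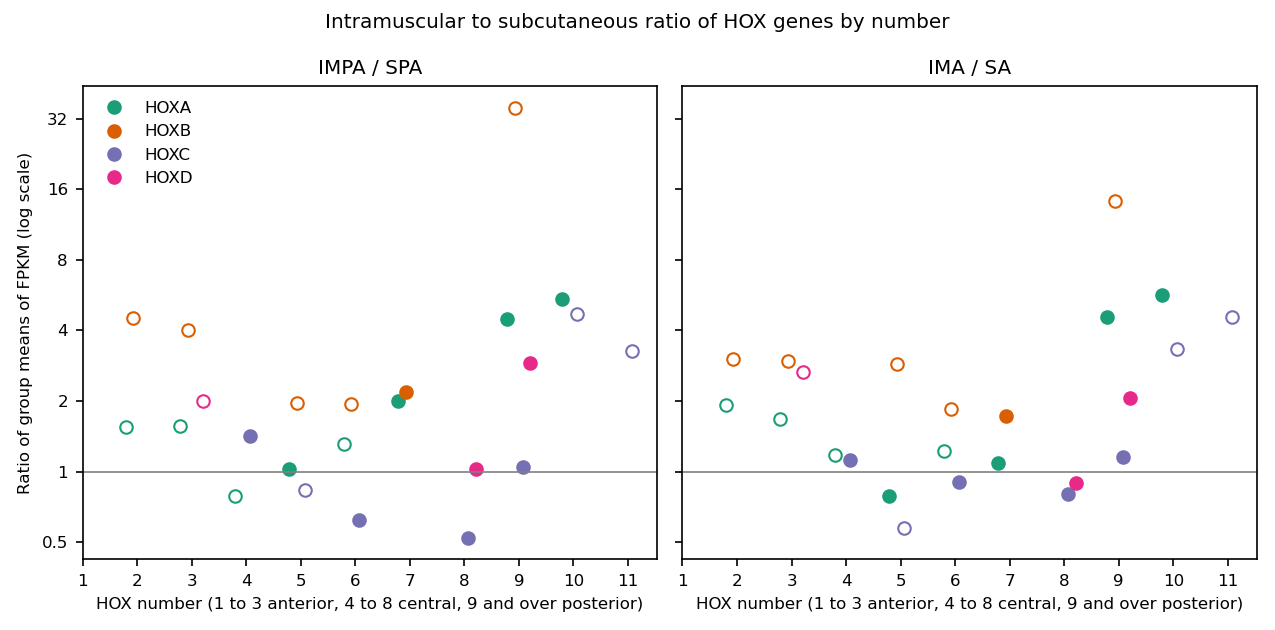
Ratio of the group means of FPKM, intramuscular over subcutaneous, on a log scale for 24 of the 25 HOX genes that averaged 0.1 FPKM or more, against the number of the gene, at day 0 (left) and after induction (right). Filled points averaged 1 FPKM or more and open points less, and colours mark the cluster. All 7 points numbered 9 or more lie above 1 in both panels, with HOXB9 highest at 35.7 and 14.3, and the HOXC points numbered 6 and 8 lie below 1. HOXB5 and HOXB9 reached 0.1 FPKM through the intramuscular libraries.

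With a lower minimum of 0.1 FPKM, 25 members could be tested, and 19 of them were called in IMPA against SPA, 17 higher and 2 lower, while 73.6% of the 13809 genes tested at that minimum were called, 41.6% higher and 32% lower, and the libraries of 15 of the 25 did not overlap, against 61.6%. HOXB5 and HOXB9 passed this minimum through the intramuscular libraries alone, so these counts are no support for a direction. Among the anterior genes HOXA2, HOXA3, HOXB2, HOXB3 and HOXD3 were higher in IMPA. Of the 12 central genes, HOXA6, HOXB5 and HOXB6 joined those named above, and HOXA4 and HOXC5 were not called. Of the 7 posterior genes, HOXB9, HOXC10 and HOXC11 were higher beside HOXA9, HOXA10 and HOXD9. The calls of HOXA2, HOXA6 and HOXB5 were lost when single libraries were left out or the values were quantile normalized, and with quantile normalization their direction turned. Quantile normalization also ended the calls of HOXA3 (log2 fold change 0.03, adjusted p 0.485) and HOXD3 (0.11, adjusted p 0.0524), and that of HOXD3 was lost with its most abundant transcript as well.

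All 6 tested HOXB genes were called higher in IMPA, against 41.6% of the 13809 genes, HOXB5 among them with the unstable call named above. Since HOXB5 and HOXB9 passed the minimum through the intramuscular libraries, this count is no support for a direction. HOXB2, an anterior gene active in the hindbrain of the embryo, had a mean of 0.859 ± 0.12 FPKM in IMPA and 0.190 ± 0.059 in SPA (log2 fold change 0.64, adjusted p 2.52e-07). HOXB3, its neighbour, had 0.508 ± 0.084 and 0.126 ± 0.028 FPKM (0.42, adjusted p 2.22e-06), and HOXB6 had 1.14 ± 0.070 and 0.585 ± 0.063 FPKM (0.43, adjusted p 1.27e-06). The libraries of these 3 genes did not overlap between the groups. HOXB3 lost its call when only its most abundant transcript was used.

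HOXB9 and HOXB8 met the rule of a 10-fold ratio between the depots, both at low levels. HOXB9 was at 0.202, 0.333, 0.288, 0.286 and 0.133 FPKM in IMPA and at 0.338, 0.557, 0.445, 0.373 and 0.532 FPKM in IMA. In SPA it was at 0.0348 FPKM in replicate 2 and listed at 0 in the other 4 libraries, and in SA it was at 0.0608, 0.0646 and 0.0316 FPKM in replicates 3 to 5 and listed at 0 in replicates 1 and 2. All 10 intramuscular libraries were above all 10 subcutaneous libraries (log2 fold change 0.31 at day 0, adjusted p 5.04e-05, and 0.49 after induction, adjusted p 1.34e-06). HOXB9 reached the minimum of 0.1 FPKM through the intramuscular libraries, so this separation and these p values are no support for a direction. The ratio of means at day 0, 35.7, rests on the value of a single SPA library.

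HOXB8 was at 0.0561, 0.0478, 0.192, 0.0727 and 0.0678 FPKM in IMPA and at 0.0494, 0.0685, 0.0629, 0.165 and 0.127 FPKM in IMA. It was listed at 0 in all SPA libraries and in 4 of the 5 SA libraries, with 0.0509 FPKM in SA replicate 4. It was too low for either minimum. The spans of HOXB8 and HOXB9 overlap in the RefSeq annotation of the goat assembly ARS1.2, so reads could be shared between them and the split of values between this pair is uncertain.

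The posterior HOXC genes followed the same direction at low level. HOXC10 was at 0.922, 1.16, 1.01, 0.841 and 0.740 FPKM in IMPA and at 0.165, 0.304, 0.102, 0.322 and 0.0983 FPKM in SPA, with no overlap (log2 fold change 0.69, adjusted p 2.05e-06). HOXC11 was at 0.247 to 0.527 FPKM in IMPA and 0.0645 to 0.213 FPKM in SPA (0.31, adjusted p 0.00038). HOXC10 and HOXC11 thus differed between the depots while HOXC9, the gene beside HOXC10, did not pass the test at day 0. The difference between these members was not tested.

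Some members under 0.1 FPKM also met the 10-fold rule after induction, in either direction, and were too low for either minimum. HOXD13 was at 0.103, 0.191, 0.0468, 0 and 0.142 FPKM in IMA and listed at 0 in all SA libraries. HOXA11 was at 0.0588, 0.0506, 0.110, 0 and 0.0654 FPKM in SA, but above 0 only in IMA replicate 5, at 0.0251 FPKM. HOXD11 was at 0.0318, 0.0339 and 0.0496 FPKM in SA replicates 3 to 5 and listed at 0 in the other SA libraries and in all IMA libraries. HOXB13 was at 0.0634 FPKM in SA replicate 1 and HOXC12 at 0.0648 FPKM in SA replicate 3, and both were listed at 0 in the other SA libraries and in all IMA libraries. HOXA13, HOXC13, HOXD1 and HOXD10 stayed at or under 0.215 FPKM in every library, and of these HOXC13, at 0.101 to 0.215 FPKM in IMA and 0 to 0.0716 FPKM in SA, did not overlap between the depots after induction.

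The comparison of IMA with SA puts the same question after 3 days of induction. HOXA9, HOXA10, HOXD9, HOXB7 and HOXC9 were higher in IMA, and HOXA5, HOXC8 and HOXD8 lower, which is 8 of the 11 members against 72.4% of the 11432 genes tested (29.0% higher and 43.4% lower in IMA). The libraries of 5 of the 11 did not overlap, against 58.6% of genes. HOXA7, HOXA9, HOXA10 and HOXB7 had reached the minimum through the intramuscular libraries, so these counts are no support for a direction. HOXA9 stood at 2.34, 2.34, 2.27, 2.40 and 2.23 FPKM in IMA and at 0.552, 0.518, 0.650, 0.479 and 0.353 FPKM in SA (log2 fold change 1.14 ± 0.063, adjusted p 7.47e-10). HOXA10 stood at 2.02, 2.14, 1.84, 2.36 and 1.69 FPKM in IMA and at 0.253, 0.332, 0.398, 0.376 and 0.413 FPKM in SA (1.150 ± 0.071, adjusted p 2.67e-09). Neither gene overlapped between the depots. No library entered both this comparison and that of day 0, but the cells of both stages came from the same goats, so these comparisons are not independent.

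HOXD9 remained higher in the intramuscular cells, at 4.04, 3.65, 3.16, 3.80 and 3.80 FPKM in IMA and 2.10, 1.71, 1.96, 1.59 and 1.60 FPKM in SA (0.75 ± 0.071, adjusted p 3.20e-07). HOXC9 was slightly higher in IMA, at 6.33 to 7.30 FPKM against 5.71 to 6.25 FPKM (0.18 ± 0.051, adjusted p 0.00582). HOXB7 was higher at 1.63 ± 0.28 against 0.949 ± 0.32 FPKM (0.44, adjusted p 0.00289), a call that was lost with quantile normalization, under which 4 members were higher and 2 lower.

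The HOXC genes that were lower in IMPA were closer to their subcutaneous level in IMA. HOXC8 stood at 3.83, 5.49, 5.04, 4.51 and 5.23 FPKM in IMA and at 6.43, 5.42, 5.43, 5.93 and 6.78 FPKM in SA, so that a single IMA library overlapped the SA range, and it fell by 0.27 on the log2 scale from SA to IMA (SE 0.084, adjusted p 0.0105). HOXC6 stood at 6.06, 7.72, 10.8, 6.89 and 6.92 FPKM in IMA and at 9.38, 7.98, 6.93, 8.82 and 9.57 FPKM in SA. Its groups overlapped, IMA replicate 3 being above all SA libraries, and it did not pass the test (log2 fold change -0.15, 95% interval -0.41 to 0.11, adjusted p 0.274). HOXD8 stood at 11.3, 9.44, 10.2, 10.3 and 10.2 FPKM in IMA and at 11.4, 12.5, 11.4, 11.6 and 10.5 FPKM in SA, and fell by 0.15 on the log2 scale from SA to IMA (adjusted p 0.0306), a call that was lost in 10 alternatives, among them leaving out any of IMA replicates 2 to 5 or SA replicates 2 or 4. HOXA5 fell by 0.20 in the same direction, from 1.64 ± 0.19 FPKM in SA to 1.29 ± 0.083 in IMA without overlap (adjusted p 0.00983). This call was lost in the fit of most abundant transcripts (adjusted p 0.0732). As HOXA5 has a single transcript, its fold change was the same in that fit.

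With the minimum of 0.1 FPKM, 18 of the 25 members were called in IMA against SA, 14 higher and 4 lower, against 70.6% of 13809 genes, 30.4% higher and 40.2% lower, and the libraries of 13 of the 25 did not overlap, against 56.8%. The 7 posterior and 6 HOXB genes tested were called higher in IMA, but HOXB5 and HOXB9 had reached the minimum through the intramuscular libraries, so these counts are no support for a direction. The call of HOXB5 was lost in 13 alternatives, and that of HOXB3 with its most abundant transcript (log2 fold change 0.08, adjusted p 0.622). Also higher were HOXA3, whose call was lost with quantile normalization, and HOXD3, whose call was lost with its most abundant transcript. HOXC5 joined those that were lower, at 0.603 ± 0.20 FPKM in IMA and 1.05 ± 0.17 in SA (log2 fold change -0.36, adjusted p 0.00183). HOXC11 stood at 0.499 to 0.756 FPKM in IMA and 0.0950 to 0.172 FPKM in SA (0.52, adjusted p 4.59e-07), and HOXC10 at 0.564 to 1.06 and 0.135 to 0.405 FPKM (0.55, adjusted p 7.20e-05).

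Read by number, the ratio of intramuscular to subcutaneous means over these 25 members was above 1 for 20 genes at day 0 and for 20 genes after induction. HOXB5 and HOXB9 reached the minimum through the intramuscular libraries, so these counts and the ratios of both genes are no support for a direction. The share of all genes with a ratio above 1 was not calculated. The 7 posterior genes had ratios from 1.05 to 35.7 at day 0 (median 4.48) and from 1.155 to 14.3 after induction (median 4.54). The 12 central genes had ratios from 0.523 to 2.19 (median 1.17) and from 0.576 to 2.89 (median 1.10), and the 6 anterior genes had medians of 1.78 and 2.29. The ratio was therefore lowest in the middle of the numbering and did not climb steadily with it. Spearman's rho of the ratio with the number was 0.35 at day 0 and 0.26 after induction over the 25 genes, which share libraries and in part reads, and it is given as a description. Within clusters rho was 0.70 and 0.28 over 9 HOXA genes, 0.46 and 0.75 over 7 HOXC genes, and 0.03 and -0.14 over 6 HOXB genes, where HOXB2 and HOXB3 had ratios of 4.52 and 4.01 at day 0. Paralogues of one number did not share a ratio. For number 9 at day 0 the ratios were 4.48 for HOXA9, 35.7 for HOXB9, 1.05 for HOXC9 and 2.90 for HOXD9.

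**Figure D3:**
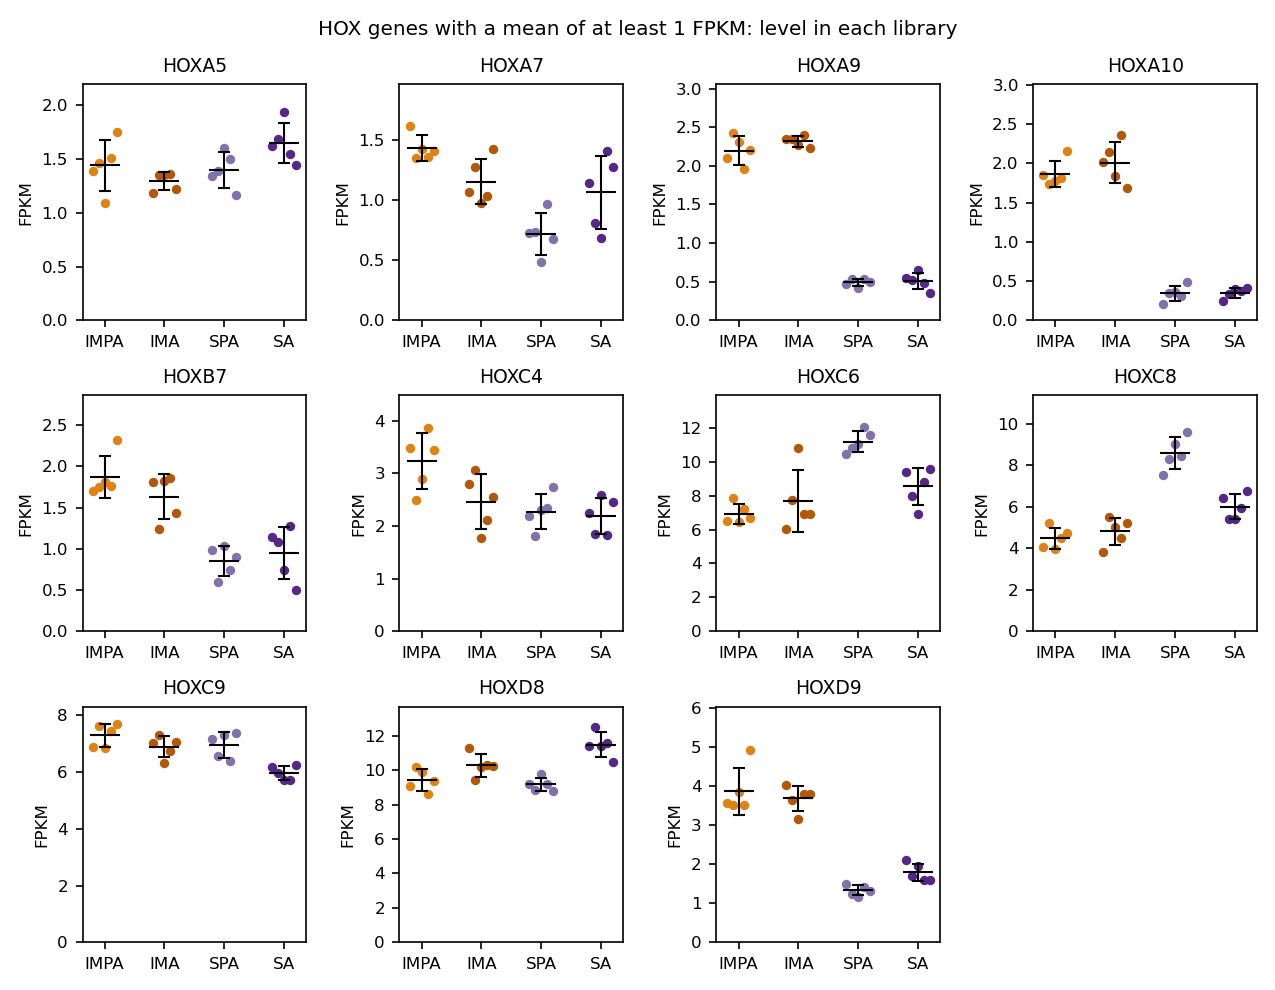
Level in FPKM of the 11 HOX genes that averaged 1 FPKM or more, in each library (points), with the mean and SD of each group of 5 (black bars), each panel on its own axis from 0. HOXA9, HOXA10 and HOXD9 are separated by depot at both stages, HOXC6 and HOXC8 are highest in SPA, and HOXC9 is near 7 FPKM in 3 groups and near 6 FPKM in SA.

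The comparison of IMA with IMPA asks what induction changed in the intramuscular cells. HOXA7 fell by 0.18 (1.44 ± 0.11 FPKM in IMPA and 1.16 ± 0.19 in IMA, adjusted p 0.0304) and HOXC4 fell by 0.29 on the log2 scale (3.24 ± 0.54 and 2.46 ± 0.52 FPKM, adjusted p 0.0401), and the other 9 tested members did not pass the test. This is 18.2% of the members, against 60.1% of the 11432 genes (19.9% higher and 40.2% lower in IMA). With upper-quartile scaling the one call was HOXD8, higher in IMA, and with quantile normalization HOXD8 was higher and HOXA7 lower. Both calls were unstable, since leaving out IMPA replicate 1, IMA replicate 3 or IMA replicate 4 left 0 calls, and leaving out any of IMPA replicates 3 to 5 or IMA replicates 1 or 5 left 1, while without IMPA replicate 2 or IMA replicate 2 there were 3, HOXD8 being the added one. The posterior genes that separated the depots gave narrow intervals in this comparison, with a log2 fold change of 0.05 (95% interval -0.06 to 0.16) for HOXA9, 0.07 (-0.08 to 0.21) for HOXA10 and -0.05 (-0.23 to 0.13) for HOXD9.

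With the minimum of 0.1 FPKM, 7 of 25 members were called between IMA and IMPA, against 55.7% of 13809 genes (20.2% higher and 35.5% lower). HOXA3 rose from 0.593 ± 0.047 to 0.858 ± 0.11 FPKM (log2 fold change 0.22, adjusted p 0.00202), HOXB9 from 0.248 ± 0.080 to 0.449 ± 0.096 FPKM (0.21, adjusted p 0.00771) and HOXC11 from 0.387 ± 0.11 to 0.638 ± 0.097 FPKM (0.24, adjusted p 0.00568). The stages did not overlap for 3 of the 25 members, HOXA3 and HOXB9 among them, against 40.1% of genes, and for none of the 11 of at least 1 FPKM, against 43.5%. The calls of HOXB9 and HOXC5 were lost in the fit of most abundant transcripts. HOXC5 has a single transcript, so its fold change was the same in that fit. HOXC5 fell from 1.01 ± 0.22 to 0.603 ± 0.20 FPKM (log2 fold change -0.33, adjusted p 0.0122).

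In the subcutaneous cells, SA against SPA, 5 of the 11 members were called, against 52.1% of the 11432 genes (26.1% higher and 26.0% lower). HOXD8 rose from 9.16 ± 0.40 to 11.5 ± 0.72 FPKM without overlap (log2 fold change 0.30 ± 0.049, adjusted p 0.000309), and HOXD9 from 1.34 ± 0.13 to 1.79 ± 0.23 FPKM (0.26 ± 0.062, adjusted p 0.0044). HOXC8 fell by 0.46 (SE 0.072, adjusted p 0.000215), HOXC6 by 0.36 (SE 0.076, adjusted p 0.00185) and HOXC9 by 0.19 (SE 0.050, adjusted p 0.00726). For all 5 the SPA and SA libraries did not overlap, as for 38.8% of genes, so HOXC6, HOXC8 and HOXC9 fell while HOXD8 and HOXD9 rose. HOXA5 (0.14, adjusted p 0.0753) and HOXA7 (0.26, adjusted p 0.0503) did not pass the test after adjustment. HOXA9 (0.02, 95% interval -0.10 to 0.13) and HOXA10 (0.01, -0.11 to 0.13) did not pass the test. At the minimum of 0.1 FPKM, HOXB2 also rose, from 0.190 ± 0.059 to 0.352 ± 0.080 FPKM (adjusted p 0.008), and HOXA4 fell from 0.725 ± 0.13 to 0.465 ± 0.075 FPKM (log2 fold change -0.23, adjusted p 0.00482), which made 7 of 25 calls against 46.8% of 13809 genes (23.3% higher and 23.5% lower). The libraries of 6 of the 25 did not overlap, against 34.8%.

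**Figure D4:**
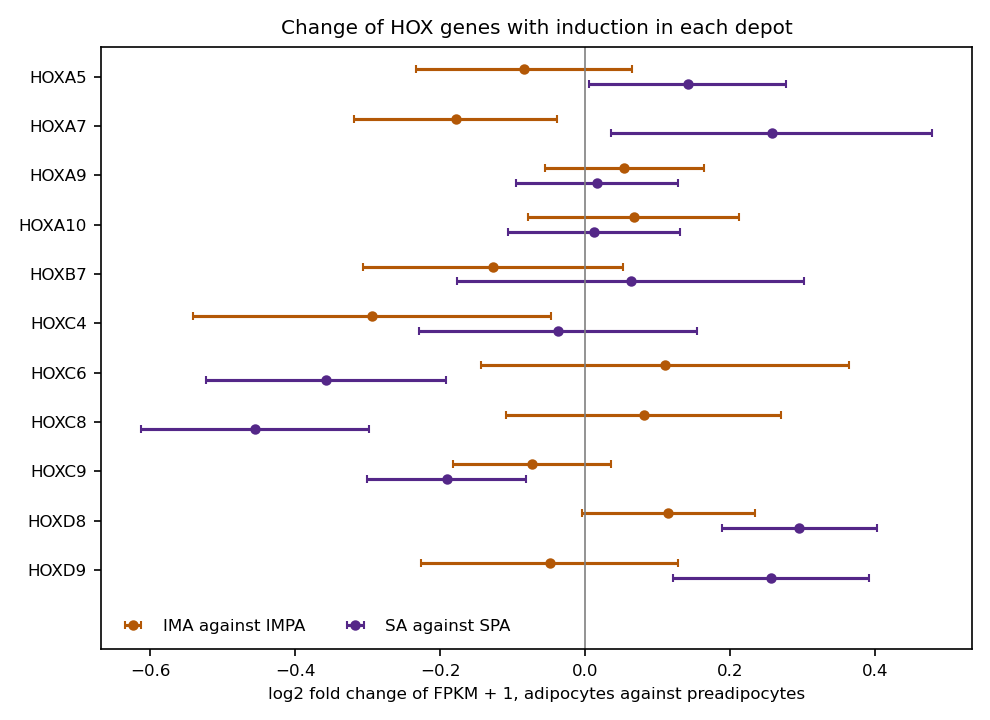
Log2 fold change of FPKM + 1 from preadipocytes to adipocytes, with 95% intervals from limma, for the 11 HOX genes tested, in the intramuscular (brown) and the subcutaneous cells (purple). The intervals of HOXC6, HOXC8 and HOXC9 lie below 0 and those of HOXD8 and HOXD9 above 0 in the subcutaneous cells, while for HOXA9 and HOXA10 all intervals include 0.

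Whether the change with induction differed between the depots was tested as the interaction over all 20 libraries. It was called for 5 of the 11 members, against 55.3% of the 11432 genes (20.7% with a higher and 34.6% with a lower change in the intramuscular cells). The change of HOXC8 was higher in the intramuscular cells by 0.54 ± 0.12 on the log2 scale (adjusted p 0.000521) and that of HOXC6 by 0.47 ± 0.15 (adjusted p 0.00962), as these genes fell in the subcutaneous cells and had log2 fold changes of 0.08 and 0.11 in the intramuscular cells. The change of HOXA7 was lower in the intramuscular cells, with an interaction of -0.44 ± 0.13 (adjusted p 0.00647), as was that of HOXD9, at -0.31 ± 0.11 (adjusted p 0.0193), and that of HOXD8, at -0.18 ± 0.073 (adjusted p 0.0406). The call of HOXD8 was lost in 21 alternatives. Those of HOXD8 and HOXD9 were lost with upper-quartile scaling and quantile normalization, under which 3 members were positive and 1 negative. Those of HOXC6 and HOXD9 were lost in the fit of most abundant transcripts. HOXD9 has a single transcript, so its fold change was the same in that fit. With the minimum of 0.1 FPKM 8 of 25 members were called, against 51.8% of genes (21% higher and 30.9% lower). For HOXA9 (0.04, 95% interval -0.12 to 0.20) and HOXA10 (0.05, -0.14 to 0.25) a difference between the depots in the change with induction was not shown.

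Most members had a single transcript in the table, but HOXC6 had 4, HOXC4 and HOXD3 had 3 each, and HOXB3, HOXB8, HOXB9 and HOXD8 were among those with 2. The leading HOXC6 transcript held 56.1%, 55.6%, 52.2% and 53.1% of the gene's sum in IMPA, IMA, SPA and SA, and all 4 HOXC6 transcripts had a higher mean in SPA than in IMPA. For HOXD8 the leading transcript held 75.5%, 80.7%, 73.9% and 80.7% of the sum. Each of the 2 HOXB3 transcripts was at 0 in some IMPA library, so their split is uncertain. The sums of HOXC4 and HOXD3 each include a transcript that RefSeq labels non-coding. That of HOXC4 had means of 1.38, 0.753, 0.578 and 0.522 FPKM in IMPA, IMA, SPA and SA. The leading HOXC4 transcript had 1.81, 1.68, 1.26 and 1.64 FPKM. Both HOXC4 calls, by depot at day 0 and by stage in the intramuscular cells, are therefore not calls of coding transcripts alone.

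The annotation also places long non-coding RNAs inside the clusters, and 7 of 8 such genes by their order on ARS1.2 had values in the annotated lncRNA table. None of the 17 named HOX cluster lncRNAs that were looked for, such as HOTAIR and HOTTIP, was found there by symbol, and these 7 genes were picked by position after the files were seen. LOC102169699, which lies between HOXB3 and HOXB2 and overlaps HOXB3, stood at 2.47, 2.97, 2.53, 2.64 and 2.24 FPKM in IMPA, at 4.45, 4.60, 3.77, 4.17 and 5.32 FPKM in IMA, at 0.999, 0.995, 1.48, 1.29 and 1.70 FPKM in SPA and at 0.897, 0.936, 1.22, 1.21 and 1.07 FPKM in SA. Its intramuscular libraries were all above its subcutaneous libraries, as was the case for HOXB2 and HOXB3. LOC106503278, within HOXB3, was at 0.415 to 0.7504 FPKM in IMPA, 0.445 to 1.24 in IMA, 0.0847 to 0.415 in SPA and 0.123 to 0.225 in SA. The sources used here do not say that the values were made with the strand of the reads, so an RNA that overlaps HOXB3 cannot be told apart from it with certainty.

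In the HOXC cluster the lncRNA LOC108635995, between HOXC8 and HOXC9, was at 1.46 to 1.83 FPKM in IMPA and 1.74 to 2.44 FPKM in SPA, and at 1.38 to 1.79 FPKM in IMA and 1.48 to 1.82 FPKM in SA. Its highest mean was in SPA, the group in which HOXC6 and HOXC8 were also highest. LOC102190854, between HOXC9 and HOXC10, was at 1.02 to 1.498 and 0.964 to 1.28 FPKM in IMPA and SPA and at 1.46 to 1.54 and 0.672 to 1.09 FPKM in IMA and SA. In the HOXA cluster LOC108635846, beside HOXA2, had means of 0.920, 1.86, 1.37 and 1.17 FPKM in IMPA, IMA, SPA and SA, LOC108635847, which overlaps HOXA3, 1.16, 1.56, 1.40 and 0.881 FPKM, and LOC108635848, which spans HOXA4 to HOXA6, 0.650, 0.535, 0.243 and 0.298 FPKM.

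HOX proteins bind DNA together with the TALE homeodomain proteins of the PBX, MEIS and PKNOX families. All 8 such cofactors that were tested, of 9 listed, were called in IMPA against SPA, 5 higher and 3 lower, with a median log2 fold change of 0.16 against 0.05 over all genes, of which 75.1% were called. MEIS2 was at 1.67 ± 0.14 FPKM in IMPA and 10.9 ± 0.55 in SPA (log2 fold change -2.16, adjusted p 9.62e-13), and at 1.60 ± 0.23 in IMA and 7.76 ± 0.68 in SA (-1.76, adjusted p 4.31e-11). MEIS1 was higher, at 12.5 ± 1.5 against 7.20 ± 1.2 FPKM (0.72, adjusted p 3.36e-05), as was PBX3, at 5.53 ± 0.62 against 3.89 ± 0.32 FPKM (0.41, adjusted p 0.000158). The MEIS pair therefore differed in opposite directions between the depots, and MEIS1, MEIS2 and PBX3 kept their direction in IMA against SA.

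Polycomb proteins keep HOX genes silent and Trithorax proteins keep them active. Of 40 such genes tested, of 43 listed, 31 were called in IMPA against SPA, 22 higher and 9 lower, with a median log2 fold change of 0.18. This is 77.5%, near the 75.1% of all genes. Upper-quartile scaling and quantile normalization made this 20 and 11, and 19 and 11. PCGF5, a subunit of variant Polycomb repressive complex 1, was at 13.6 ± 1.4 FPKM in IMPA and 3.63 ± 0.16 in SPA (1.65, adjusted p 1.44e-10), and CBX2, which reads the Polycomb mark, at 4.47 ± 0.24 and 1.13 ± 0.089 FPKM (1.36, adjusted p 6.19e-11). PHF1, an accessory subunit of Polycomb repressive complex 2, was lower in IMPA, at 6.67 ± 0.27 against 12.9 ± 0.29 FPKM (-0.86, adjusted p 3.74e-10). EZH2, the methyltransferase of that complex, was higher in IMPA at 11.8 ± 0.55 against 5.31 ± 0.40 FPKM (1.02, adjusted p 1.70e-09) but lower in IMA at 8.70 ± 0.26 against 10.5 ± 0.49 FPKM in SA (-0.24, adjusted p 0.00029).

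Retinoic acid and the CDX factors switch HOX genes on in the embryo. Of 15 genes of this kind tested, of 25 listed, 13 were called in IMPA against SPA, 9 higher and 4 lower, with a median log2 fold change of 0.35. This is 86.7%, against 75.1% of all genes (42.3% higher and 32.9% lower). CRABP2, a carrier of retinoic acid in the cell, was at 25.6 ± 2.0 FPKM in IMPA and 4.70 ± 0.80 in SPA (2.23, adjusted p 1.95e-10), and at 73.7 ± 6.7 in IMA and 4.76 ± 0.98 in SA (3.71, adjusted p 3.33e-13). DHRS3, a retinal reductase, was at 34.1 ± 9.3 FPKM in IMPA and 5.61 ± 0.48 in SPA (2.37, adjusted p 7.72e-09), and ALDH1A1, a retinal dehydrogenase that makes retinoic acid, at 4.97 ± 0.67 and 1.16 ± 0.22 FPKM (1.47, adjusted p 8.68e-09). RARB, a retinoic acid receptor, was lower in IMPA, at 6.42 ± 0.52 against 14.96 ± 0.97 FPKM (-1.11, adjusted p 2.08e-09). After induction the direction held for CRABP2, DHRS3 and RARB, while ALDH1A1, at 2.16 ± 0.16 FPKM in IMA and 2.25 ± 0.21 in SA, did not pass the test (adjusted p 0.568).

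The genes that flank the clusters were listed to see whether they moved as the HOX genes did. Of 22 flanking genes tested, of 30 in the table, 16 were called in IMPA against SPA (72.7%, near the 75.1% of all genes), 10 higher and 6 lower, and 9 and 9 with upper-quartile scaling, with a median log2 fold change of 0.07. On the HOXB side CALCOCO2, an autophagy receptor, was lower in IMPA at 32.7 ± 0.83 against 59.9 ± 2.6 FPKM (-0.85, adjusted p 3.05e-10), and CBX1, a heterochromatin protein, was higher at 39.8 ± 1.8 against 24.9 ± 1.0 FPKM (0.66, adjusted p 1.31e-08). On the HOXD side ATP5G3, a subunit of the ATP synthase, was higher at 293.7 ± 22 against 163.0 ± 8.1 FPKM (0.84, adjusted p 1.23e-08), and LNPK, an endoplasmic reticulum protein, was higher at 16.7 ± 0.49 against 11.4 ± 0.34 FPKM (0.51, adjusted p 3.64e-08). EVX1 and EVX2, the homeobox genes at the posterior ends of the HOXA and HOXD clusters, stayed below 0.1 FPKM in all groups.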

How the data were processed

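RNA of 20 libraries, 5 each of IMPA, IMA, SPA and SA, was sequenced with strand-marked libraries. The authors aligned reads with HISAT2 2.0.4 to the goat assembly ARS1 and deposited FPKM per transcript, calculated with StringTie 1.3.1 and Ballgown. No counts were given, so depth per value is unknown, and nothing was realigned.

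Transcripts were summed per symbol. Genes with a mean of at least 1 FPKM were tested on log2(FPKM + 1) with limma 3.58.1 (variance trend, R 4.3.3), in fits of the 10 libraries compared, with the interaction over 20 libraries, two-sided. Adjustment over all genes tested followed Benjamini and Hochberg, and an adjusted p under 0.05 was a call. Plots came from matplotlib 3.10.9 and tables from pandas 2.3.3, numpy 2.4.6 and scipy 1.17.1 under Python 3.11.15. The fits were tested on simulated data. All 37 members matched RefSeq's gene table of ARS1.2 by gene ID. That table was used only for names and gene order, because its assembly is not that of the files.

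The members and lists were chosen with earlier results of these data known. By the rule for named genes, values per library were given for members of at least 10 FPKM in a group with a depot difference and for members with a 10-fold ratio between depots, and up to 4 genes per list with the smallest p in IMPA against SPA were named. Other per-library values, and the lncRNAs inside the clusters, were chosen after values were seen.

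Alternatives were a minimum of 0.1 FPKM, no filter, quantile normalization, upper-quartile scaling, a sum of 1000000 per library, 0.1 as pseudocount, a fit of all 4 groups, a fit with no variance trend, the most abundant transcript, a replicate block, and the removal of single libraries or of SPA replicate 1 with SA replicate 5, which lost another share of reads in filtering than the other subcutaneous libraries. For members under 1 FPKM these were run at the minimum of 0.1 FPKM, a choice made after seeing the data. A member and a listed gene are not reported here by name or in the plots. Newly assembled lncRNAs were not used here.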

Additional observations from a re-analysis of the deposited data

Results flagged for a closer look

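A single library stood apart in its group of 5 for 4 of the 44 member and group sets examined (Dixon's test at 95%), and chance alone flags about 1 in 20. HOXA7 was at 1.62 FPKM in IMPA replicate 1, with the others at 1.36 to 1.43 FPKM. IMPA replicate 5 was high for 3 genes, HOXA10 at 2.15 FPKM (others 1.74 to 1.85), HOXB7 at 2.31 FPKM (others 1.70 to 1.81) and HOXD9 at 4.92 FPKM (others 3.51 to 3.84). The depot calls of these genes at day 0 held without these libraries.

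The change with induction differed between the depots for 5 members in the interaction test of limma over 20 libraries. The intramuscular minus the subcutaneous change was -0.44 for HOXA7 (adjusted p 0.00647), 0.47 for HOXC6 (adjusted p 0.00962), 0.54 for HOXC8 (adjusted p 0.000521), -0.18 for HOXD8 (adjusted p 0.0406) and -0.31 for HOXD9 (adjusted p 0.0193), on the log2 scale.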

How the results depend on the processing

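Of 1244 alternative values of 58 fold changes of called members, 1120 kept direction and call, 120 lost the call and 4 reversed. With quantile normalization at the 0.1 FPKM minimum, IMPA against SPA turned to -0.024 for HOXA2, -0.025 for HOXA6 and -0.024 for HOXB5, and with the most abundant transcript HOXC4 in IMA against IMPA turned to 0.00091; the cause was not tested. The minimum of 0.1 FPKM and no filter, which test 25 and 35 members, gave 19 and 20 calls in IMPA against SPA, 18 and 21 in IMA against SA and 7 and 6 in IMA against IMPA, and 0.1 FPKM gave 8 in the interaction. IMA against IMPA had 1 call with upper-quartile scaling, 1 with all 4 groups in the fit and 0 with the most abundant transcript, which also left 2 calls in the interaction. Leaving out 1 library gave 8 to 8 calls in IMPA against SPA, 7 to 8 in IMA against SA, 0 to 3 in IMA against IMPA, 5 to 6 in SA against SPA and 4 to 6 in the interaction, and 7 to 8 cofactors, 31 to 32 Polycomb and Trithorax genes, 15 to 17 flanking genes and 13 to 13 upstream regulators. At 0.5 FPKM 17 genes counted as expressed in IMA and 11 in SPA, and with values scaled to a sum of 1000000 per library 19, 19, 15 and 13 in IMPA, IMA, SPA and SA. No scaling moved the median of all genes by over 0.1.

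The labels do not say whether a replicate number marks a goat, and the libraries did not meet the criterion for pairing, a correlation over 0.1 in every pair (correlation of deviations from -0.101 to 0.0609 for IMPA and SPA, -0.182 to 0.0259 for IMA and SA, 0.0417 to 0.121 for IMA and IMPA and -0.242 to 0.122 for SA and SPA). For IMA and IMPA all 5 correlations were positive and 2 were over 0.1, so a shared goat is not settled there. In the same order, the number of libraries that correlated best with their own number was 2, 0, 3 and 1 of 5. With the replicate block 8, 7, 0 and 7 members were called in these comparisons and 4 in the interaction.

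By the study's alignment summary every intramuscular library of a stage had a higher mapped share than every subcutaneous library of that stage. Every IMPA library was also above every IMA library in this share, and every SPA library above every SA library. The mapped share therefore cannot be told apart from depot or from stage, and the interaction draws on the same groups. In the study's read summary every IMPA library had a higher GC content than every library of the other groups. Depth is unknown, and members under 0.1 FPKM cannot be compared at these levels.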
